A study of Mus musculus with 6 samples.

Results

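The histone genes are described here as they appear in polyadenylated RNA of mouse splenic germinal centre B cells, the B cells that divide and diversify their antibody genes after immunisation. Members were taken by gene symbol, with a name pattern that covers the clustered core and linker histone genes and the variant histones. The pattern gave 84 genes of the 55401 listed, after 6 symbols marked as pseudogenes by the ending -ps were left out. They comprise 63 replication-dependent genes, 10 variant or replacement genes, 5 germ cell genes and 6 entries that GENCODE release M21 annotates as pseudogenes or antisense RNA. H3f3aos, 1 of these 6, is annotated as an antisense RNA and is no histone gene.

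All cells came from the spleens of wild-type (WT) C57BL/6 mice given sheep red blood cells (SRBC) into the peritoneum, challenged 5 days later with the same cells and killed on day 12. The 2 groups are the sorted subsets labelled DN and DP, each with 3 libraries. The labels do not say which antigens define them, and they give no age or sex. The design text names 3 mice as the source of both subsets. Since the labels do not say which libraries share a mouse, the p-values measure only the spread between libraries, which may be technical.

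Histones package DNA into nucleosomes, each built from the core histones H2A, H2B, H3 and H4, while the linker histone H1 binds where DNA enters and leaves. Replication-dependent histone genes are transcribed during S phase, and their mRNAs end in a conserved stem-loop, bound by the protein SLBP, in place of a poly(A) tail. Most variant and replacement histones are made through the cell cycle from ordinary polyadenylated mRNAs. A library made from polyadenylated RNA therefore samples most variant genes normally, with H2ax, described below, as a possible exception. Of the replication-dependent genes it samples mainly whatever transcripts carry a poly(A) tail.

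The stem-loop is printed for 6 members, because it marks most replication-dependent genes, and few other genes, in the annotated transcripts. The last of the 6, H2ax, is a variant gene. Letters in capitals are the 16-base stem-loop, in the sense strand of the GENCODE M21 transcript (mm10), with 5 flanking bases on each side.

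H1f2 (chr13:23739512-23739527, plus strand): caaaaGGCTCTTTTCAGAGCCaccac
H2ac4 (chr13:23751572-23751587, plus strand): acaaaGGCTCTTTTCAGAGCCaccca
H2bc6 (chr13:23585531-23585546, minus strand): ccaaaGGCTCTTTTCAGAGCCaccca
H3c2 (chr13:23752820-23752835, plus strand): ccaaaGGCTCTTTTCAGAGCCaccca
H4c9 (chr13:22040966-22040981, minus strand): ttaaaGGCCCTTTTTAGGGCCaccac
H2ax (chr9:44335240-44335255, plus strand): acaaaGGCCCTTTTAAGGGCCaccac

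The motif searched was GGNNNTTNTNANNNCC on the sense strand, within 150 bases after the stop codon. It was found in 44 of the 50 replication-dependent genes that have at least 16 annotated bases there (88.0%), and in all 44 the 6 stem positions paired. The motif itself fixes the outer GG with CC and the inner T with A, so only the stem positions written N could have failed to pair. Among all protein-coding genes with such a window, 110 of 20983 (0.524%) held the motif, and these 110 include the 46 histone members that held it. Of the 10 variant genes 1 held it, H2ax, which encodes the H2A variant that is phosphorylated at DNA breaks. Its annotated transcript runs 822 bases past the stem-loop. A poly(A) signal, AATAAA or ATTAAA, stood in the last 50 bases of an annotated coding transcript for 9 of the 10 variant genes, for 15 of the 63 replication-dependent genes and for 77.9% of all protein-coding genes. H2ax thus carried both features in its annotated transcript. The 63 replication-dependent genes include some with fewer than 16 annotated bases after the stop codon, where a poly(A) signal further on could not be seen.

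Read depth bears on the replication-dependent genes most. The DN libraries held 8904415 to 11897360 gene counts each and the DP libraries 17509384 to 20538024. Levels are normalised read counts (CPM), with library sizes adjusted by the TMM method for composition. A floor of 3 counts was 0.236 to 0.315 CPM in DN and 0.155 to 0.183 CPM in DP, which covers counting error only. Of the 9 genes fixed as germinal centre B cell markers, all were tested and 8 were lower in DP. Among them was Bcl6 (159.6 CPM against 76.5 CPM in DP), the repressor that defines these cells. Over all tested genes 37.6% were called lower and 38.3% higher in DP. The 8 erythroid markers summed to 62.0 to 72.4 CPM in DN and 15.9 to 18.3 CPM in DP, and the 8 macrophage markers to 21.6 to 24.3 CPM and 10.7 to 12.1 CPM. Both lists were thus higher in DN, in the same direction as most tested histone genes, and their part in those results was not tested. The 5 plasma cell markers summed to 387 to 398 CPM in DN and 293 to 306 CPM in DP, with 3 of the 4 tested higher in DP and Jchain, which makes most of the sum, lower. The 6 T cell markers summed to 49.6 to 58.2 CPM and 57.4 to 60.2 CPM, nearly all of it Lck, and of the 2 tested Lck was higher and Cd4 lower in DP. The part of these lists in the results was not tested either.

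Histone transcripts were mostly lower in DP. Of the 84 members 13 passed the filter on low counts and were tested, 4 replication-dependent and 9 variant genes. H2bc4 and H2bc21 passed through their DN counts, with DP counts too low to pass alone. For these genes the filter thus favoured a lower level in DP. Among these 13, 10 were lower in DP, 2 were higher and 1 did not pass, by edgeR's quasi-likelihood test at an adjusted p of 0.05. That test called 75.9% of all 11296 tested genes, 37.6% lower and 38.3% higher in DP. Of the 13 tested members, 8 were called and at least 2-fold lower in DP, against 12.8% of all tested genes. Their median log2 fold change of DP against DN was -1.29, where that of all tested genes was 0.01. The value of -1.29 is that of H2bc21 itself, and the 9 variant genes alone had a median of -1.15. In 10 members every DP library lay below every DN library, in 2 every DP library lay above, and in 1 the groups overlapped. Over all tested genes the groups did not overlap in 77.0%, with DP below in 38.0% and DP above in 39.0%. In bulk RNA, fewer cells of a kind and less RNA per cell cannot be told apart. With library totals alone as the scaling the median over all genes moved to -0.19, and 11 histone genes were then lower and 1 higher.

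**Figure D1:**
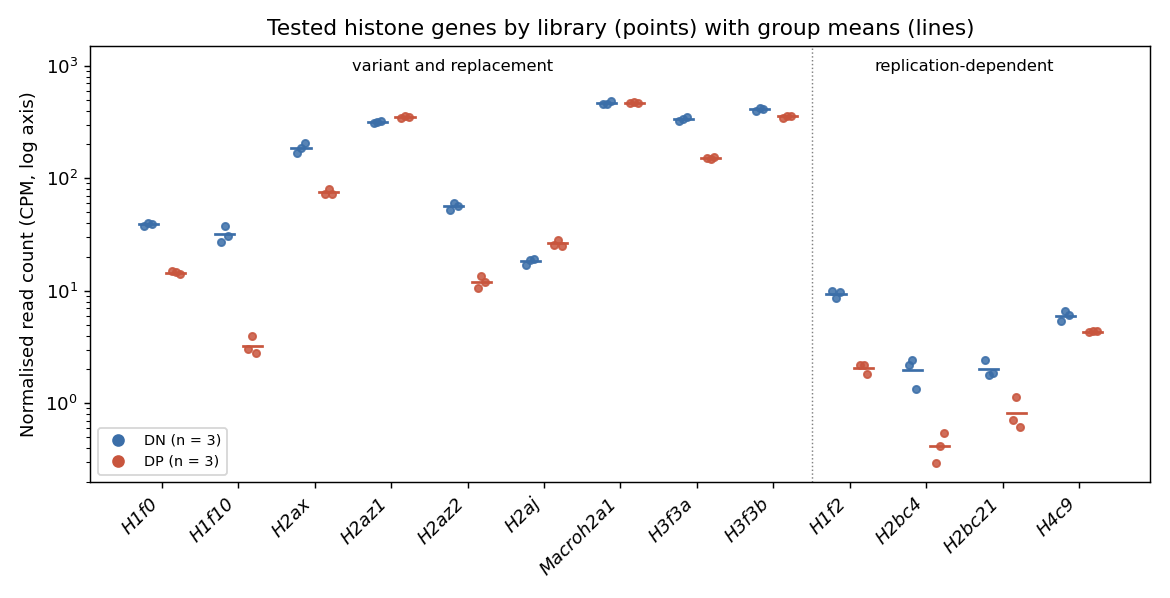
Normalised read count (CPM, log axis) of the 13 tested histone genes in each library, DN in blue and DP in red, with lines at the group means. H1f10 shows the widest gap, from 27.3 to 37.5 CPM in DN and from 2.81 to 3.93 CPM in DP, and Macroh2a1 the overlap.

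Both linker histone genes of the variant class fell, and H1f10 had the largest change of the 13 tested members. H1f10, which encodes the replication-independent linker histone also known as H1X, was at 27.3, 37.5 and 30.9 CPM in the DN libraries and at 3.02, 3.93 and 2.81 CPM in the DP libraries. Each DP library lay far below each DN library. Its log2 fold change was -3.26 ± 0.13 (standard error, edgeR adjusted p = 2.30e-28), a fall larger than that of all but 0.770% of tested genes. H1f0, which encodes the linker histone that accumulates in resting and differentiated cells, stood at 37.3, 39.8 and 39.4 CPM in DN and at 14.996, 14.6 and 13.98 CPM in DP. It fell by 1.41 ± 0.08 on the log2 scale (edgeR adjusted p = 1.64e-24), with little spread within either group. In DN the read counts of the 2 genes were close, with 1.23 ± 0.156 H1f0 counts per H1f10 count (SD, n = 3). In DP there were 4.55 ± 0.727, so the balance shifted to H1f0 while both genes fell. Together they summed to 70.7 ± 6.40 CPM in DN, against 17.8 ± 0.895 CPM in DP. For H1f10, 17.5% of exon bases overlap the antisense gene Gm5577, which had 4 to 24 counts in DN and 1 to 10 in DP, against 301 to 358 and 46 to 76 for H1f10. Whether reads were counted by strand is not given in the labels.

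**Figure D2:**
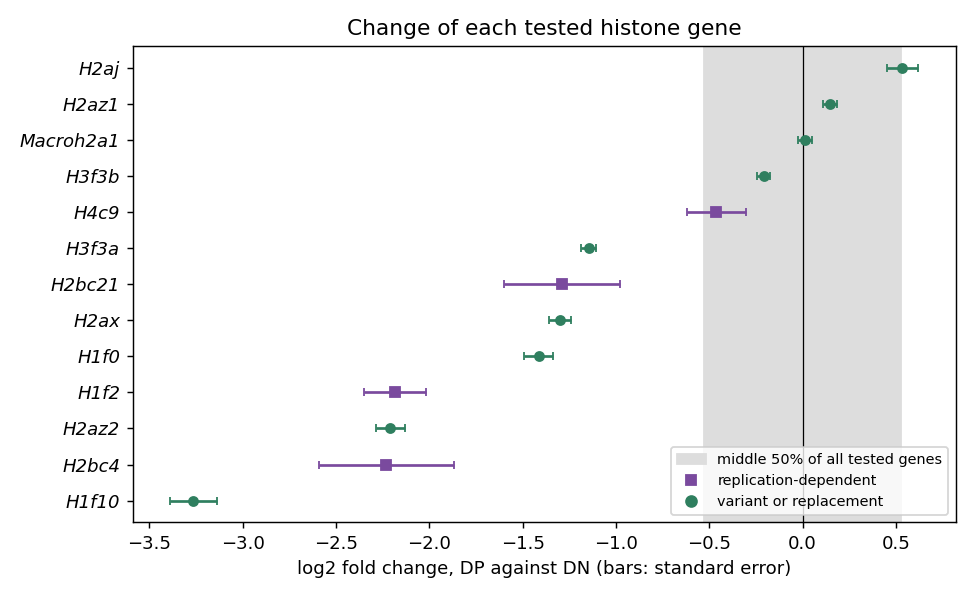
Log2 fold change of DP against DN for each tested histone gene, with bars of 1 standard error. Squares are replication-dependent and circles variant genes, and the grey band spans the middle 50% of all tested genes (-0.53 to 0.53). Changes run from -3.26 for H1f10 to 0.53 for H2aj.

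The H2A variants moved in different directions. H2A.Z, a variant placed at promoters and enhancers, is encoded by H2az1 and H2az2. H2az2 stood at 52.7, 60.0 and 56.3 CPM in DN and at 10.7, 13.6 and 12.0 CPM in DP. The groups were far apart, and H2az2 fell by 2.21 ± 0.08 on the log2 scale (edgeR adjusted p = 6.44e-34). H2az1 stood at 309, 319 and 324 CPM in DN and at 344, 359 and 349 CPM in DP. This was a rise of 0.15 ± 0.04 on the log2 scale (edgeR adjusted p = 3.39e-04), and with library totals alone it was -0.05 (adjusted p = 0.209). Within each library H2az1 had 5.87, 5.31 and 5.76 counts per H2az2 count in DN and 32.3, 26.4 and 29.2 in DP, a ratio that no library scaling affects. The sum of both genes was 374 ± 10.4 CPM in DN, against 363 ± 9.09 CPM in DP. These sums overlapped between the groups, with H2az1 making 84.9% of the sum in DN and 96.7% in DP.

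H2ax, shown above with its stem-loop, stood at 169, 184 and 205 CPM in DN and at 72.7, 80.9 and 71.9 CPM in DP. It fell by 1.30 ± 0.06 on the log2 scale (edgeR adjusted p = 3.57e-15). Any H2ax transcripts that end at the stem-loop would mainly be missed in these values and in the ratios and shares below. H2aj encodes a replication-independent H2A variant and was the variant gene with the largest rise. Its libraries stood at 17.0, 18.8 and 19.1 CPM in DN and at 25.6, 28.4 and 25.0 CPM in DP, without overlap. The rise was 0.53 ± 0.08 on the log2 scale (edgeR adjusted p = 9.45e-08), and 0.34 with library totals alone. There were 0.0987 ± 0.00490 H2aj counts per H2ax count in DN and 0.350 ± 0.00261 in DP. Macroh2a1 encodes macroH2A1, a variant with a large globular domain that is linked to gene repression. At 455, 460.3 and 482 CPM in DN and 465, 478 and 464 CPM in DP its groups overlapped. Its log2 fold change was 0.01 ± 0.04 (edgeR adjusted p = 0.766), and it was -0.18 with library totals alone (adjusted p = 5.16e-06), close to the shift of the median gene, and 0.09 without the filter on low counts (adjusted p = 0.0420). Its paralogue Macroh2a2 had 1, 0 and 0 counts in DN and 1, 1 and 0 in DP and was not tested. Of the counts of the 6 variant H2A genes, Macroh2a1 took 44.6% ± 0.628 in DN and 50.3% ± 0.436 in DP, H2az1 30.4% ± 0.528 and 37.6% ± 0.252, and H2ax 17.8% ± 1.01 and 8.04% ± 0.336 (SD, n = 3).

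H3f3a and H3f3b encode the same protein, the replacement H3 that is deposited outside replication at active genes and elsewhere. H3f3a stood at 325, 339 and 347 CPM in DN and at 153, 149 and 155 CPM in DP. Its libraries were tightly grouped and it fell 2.21-fold (log2 standard error 0.04, edgeR adjusted p = 5.06e-35). H3f3b stood at 399, 418 and 413 CPM in DN and at 343, 361 and 359 CPM in DP. Its fall was much smaller, 0.21 ± 0.04 on the log2 scale (edgeR adjusted p = 8.15e-07), although the groups again did not overlap. H3f3b had 1.23, 1.23 and 1.19 counts per H3f3a count in DN and 2.25, 2.42 and 2.32 in DP. The sum of both genes was 747 ± 20.2 CPM in DN, against 507 ± 9.93 CPM in DP, with H3f3a making 45.1% of it in DN and 30.0% in DP. Of the 50-base stretches in annotated H3f3a transcripts 72.9% occur in no other gene's transcripts, on either strand. The rest may be shared with other copies or with overlapping genes. Of the H3f3a exon bases, 22.8% overlap Gm17275 or H3f3aos on the opposite strand. The antisense gene H3f3aos had 4 to 5 counts in DN and 1 to 4 in DP.

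**Figure D3:**
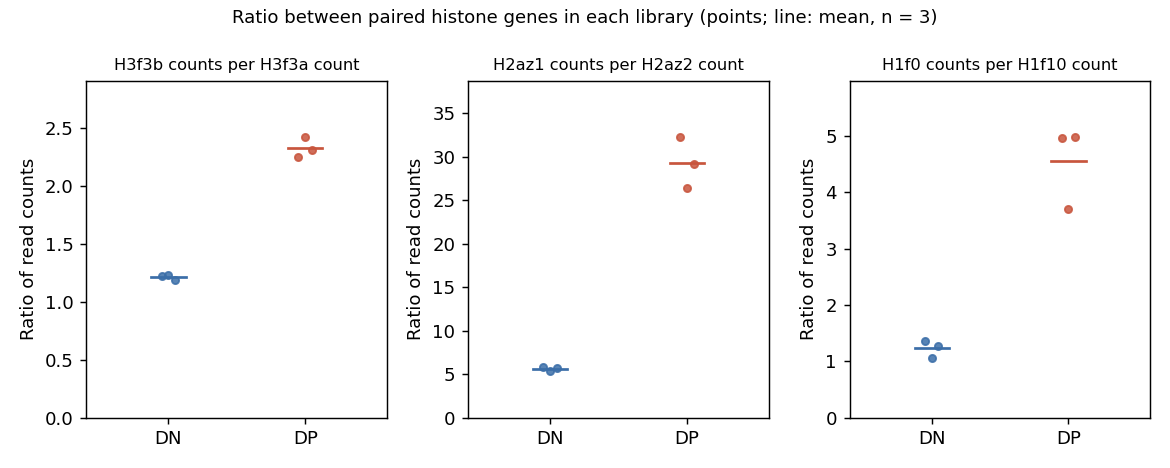
Ratio of raw read counts between paired histone genes in each library, with lines at the means of 3 libraries per group. In all 3 pairs the DP libraries lie above the DN libraries, with H2az1 per H2az2 at 5.31 to 5.87 in DN and 26.4 to 32.3 in DP.

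Levels can be compared between genes, only roughly, per kilobase of annotated exon. Exon bases were pooled over all annotated transcripts of a gene. This lowers the value of genes with several, such as Macroh2a1 with 6809 bases over 8 transcripts. The share of sequence that is a gene's own differs too. On that scale H2az1 led in both groups, at 179 ± 4.31 CPM per kilobase in DN and 198 ± 4.29 in DP (SD, n = 3). H3f3b (138 ± 3.39) and H2ax (134 ± 13.1) followed in DN and did not differ beyond their spread. In DP H3f3b was at 119 ± 3.35, Macroh2a1 at 68.9 ± 1.14 and H2ax at 54.3 ± 3.61 CPM per kilobase. H1f10 went from 26.2 ± 4.26 to 2.67 ± 0.490 and thereby from above H1f0 (18.9 ± 0.660) to below it (7.07 ± 0.250). H2az2 (7.40 ± 0.902) and H1f0 did not differ beyond their spread in DP. Of the replication-dependent genes, H4c9 was at 8.29 ± 0.818 in DN and 5.96 ± 0.0877 in DP, H1f2 at 6.03 ± 0.453 and 1.32 ± 0.1305, and H2bc21 at 0.771 ± 0.137 and 0.313 ± 0.107 CPM per kilobase. H2bc4 (0.363 ± 0.109) and H2bc21 did not differ beyond their spread in DP.

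The 63 replication-dependent genes together held few reads. Their counts summed to 381, 290 and 312 in the DN libraries and to 197, 252 and 186 in the DP libraries, although the DP libraries were deeper. That is 30.8 ± 1.08 CPM in DN, against 12.0 ± 0.894 CPM in DP, a level 2.56 times higher in DN. The 10 variant genes summed to 1861 ± 64.6 CPM in DN, against 1458 ± 28.6 CPM in DP, 1.28 times higher in DN, and took 98.8% of all histone counts. Replication-dependent genes took 1.17% of them.

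H1f2, a replication-dependent linker histone gene on chromosome 13 from 23738808 to 23740367, had 126, 82 and 95 counts in DN and 37, 42 and 30 in DP. In normalised terms these were 9.89, 8.60 and 9.74 CPM for DN and 2.19, 2.17 and 1.83 CPM in DP. It fell by 2.18 ± 0.17 on the log2 scale (edgeR adjusted p = 4.12e-18). H4c9, one of the many genes for the invariant histone H4, had 69, 63 and 59 counts in DN and 72, 84 and 72 in DP, or 5.42, 6.61 and 6.05 CPM and 4.27, 4.35 and 4.39 CPM. It did not overlap between groups either, but its fall was the smallest of the 4, at 0.46 ± 0.16 on the log2 scale (edgeR adjusted p = 0.00790). It was the replication-dependent gene with the most counts in all, 419 of 1618, and without it the others summed to 24.7 ± 1.09 CPM in DN, against 7.69 ± 0.900 CPM in DP.

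The other tested replication-dependent genes encode H2B. H2bc4 had 28, 23 and 13 counts in DN and 5, 8 and 9 in DP, or 2.20, 2.41 and 1.33 CPM and 0.296, 0.414 and 0.549 CPM. It fell by 2.23 ± 0.36 on the log2 scale (edgeR adjusted p = 1.68e-07). H2bc21 had 31, 17 and 18 counts in DN and 12, 22 and 10 in DP, or 2.43, 1.78 and 1.85 CPM and 0.711, 1.14 and 0.610 CPM. It fell by 1.29 ± 0.31 (edgeR adjusted p = 1.87e-04). Both have transcripts in GENCODE M21 that run far past the stop codon, by 742 and 2192 bases. The stem-loop motif was not among the first 150 of those bases in either, which says only that these letters are not in that window.

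The remaining 59 replication-dependent genes stayed below the filter, with at most 18 counts in any library. The ones with most counts over all libraries were H1f4 (54), H2bc6 (53) and H1f5 (43). H1f4 and H2bc6 overlap on the same strand over 25.7% of H1f4 exon bases, so reads there may have been left unassigned. Summed, the 59 genes had 127, 105 and 127 counts in DN and 71, 96 and 65 in DP. Normalised, this was 11.3 ± 1.55 CPM in DN against 4.38 ± 0.522 CPM in DP, and the groups did not overlap. The lower level in DP was thus also seen outside the 4 genes that could be tested. Of the 5 germ cell genes 4 had no count in any library and H1f6 had a single count in DP. The 6 entries annotated as pseudogene or antisense had 34 counts in DN and 15 in DP.

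By family, the 5 linker H1 genes summed to 12.7 ± 0.688 CPM in DN, against 3.31 ± 0.439 CPM in DP. The 17 H2B genes were at 7.05 ± 0.380 and 2.47 ± 0.336 CPM, and the 16 H2A genes at 3.08 ± 0.353 and 1.25 ± 0.1302 CPM. The 12 H3 genes had 17 counts over all DN libraries and 11 over all DP libraries, or 0.543 ± 0.331 and 0.207 ± 0.0770 CPM. The 13 H4 genes stood at 7.39 ± 0.915 and 4.79 ± 0.118 CPM, and without H4c9 at 1.36 ± 0.365 and 0.450 ± 0.106 CPM. In each of these families, and in H4 without H4c9, every DP library lay below every DN library. For H3 this rests on 5, 3 and 9 counts in DN and 2, 5 and 4 in DP, with DN2 at the floor. By position, the 51 genes on chromosome 13 took 88.4% of the replication-dependent counts and the 10 on chromosome 3 took 9.64%. The chromosome 13 genes stood at 26.9 ± 0.637 CPM in DN against 10.8 ± 0.640 CPM in DP, and those on chromosome 3 at 3.00 ± 0.138 and 1.13 ± 0.234 CPM.

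**Figure D4:**
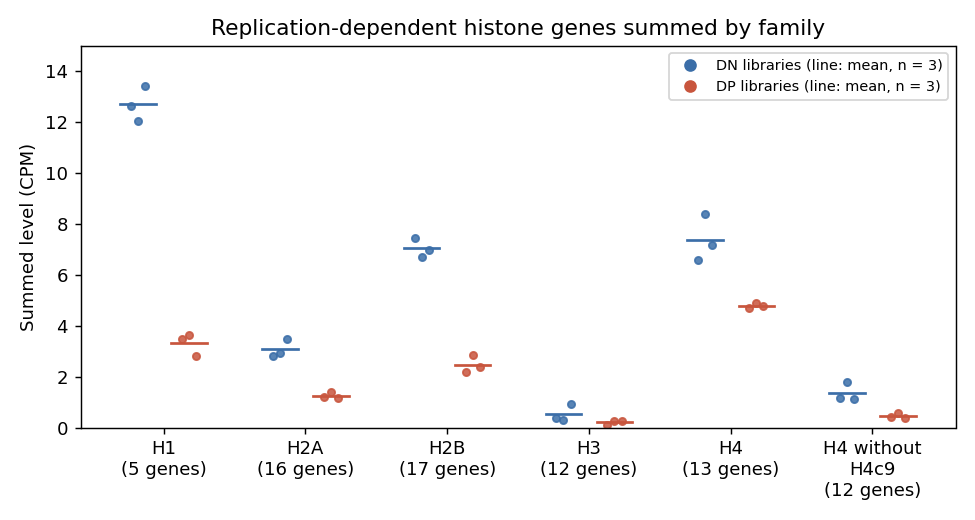
Summed level (CPM) of the replication-dependent histone genes of each family in each library, with lines at the means of 3 libraries per group. The H1 family is highest in DN at 12.7 CPM, and H4 in DP is carried by H4c9, without which it is at 0.450 CPM.

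Replication-dependent counts were concentrated in H4c9 (419) and H1f2 (412). The 21 genes whose annotated transcript runs 100 or more bases past the stem-loop took 68.4% of the replication-dependent counts, at 30.6 counts per kilobase of exon over all libraries. The 23 genes with a stem-loop and under 100 bases past it took 9.21%, at 12.8 counts per kilobase. H1f2 and H4c9 belong to the first set, and the other 19 genes of it had 275 counts, or 8.12 per kilobase. Without these 2 genes the order of the sets thus reversed per kilobase, but not in counts, 275 against 149. The comparison without them was added after the values were seen. With all genes kept, the median count per gene was 12 in the first set and 4 in the second. Across the 44 genes with a stem-loop, total count and bases past it had a Spearman correlation of 0.30, a description over genes that share 6 libraries. Both sets were lower in DP, at 21.04 ± 1.33 CPM in DN against 8.25 ± 0.416 CPM in DP for the first and at 2.60 ± 0.624 and 1.29 ± 0.419 CPM for the second. The transcript of H1f2 runs 840 bases past its stem-loop, that of H4c9 330 and that of H2bc6 1861, against 11 for H2ac4 and 51 for H3c2. H2bc6 and H4c9 also have a poly(A) signal near an annotated end, as does H1f2.

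Sequence identity between copies limits what can be counted, since reads that align to several places stood in a summary row and not with genes. That row held 3.73% ± 0.0355 of all counts in DN and 3.39% ± 0.0189 in DP. The 29 replication-dependent genes in which at least 50% of 50-base stretches are their own took 87.6% of the replication-dependent counts, and the other 34 took 12.4%. Both sets were lower in DP, at 27.2 ± 0.956 and 10.4 ± 0.457 CPM for the first and at 3.57 ± 0.384 and 1.63 ± 0.438 CPM for the second. The 8 genes with no count in any library, among them H2ac18, H3c14 and H2bc18, had at most 36.5% of such stretches of their own, with a median of 4.59%, against a median of 50.5% in the 55 genes with a count. Stretches shared with an overlapping gene, on either strand, were not counted as a gene's own, so a low share need not mean identical copies. On the same strand, H3c14 shares 100% and H2ac18 90.3% of exon bases with Gm20634, and H2bc18 shares 59.3% with Gm42743. Reads there may have been left unassigned for that reason. For genes with no sequence of their own, a count of 0 does not show absence of transcripts. Across the 63 genes total count and this share had a Spearman correlation of 0.63, given as a description, since all points share the same 6 libraries and transcript length was not held fixed.

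Without the filter on low counts, 55 replication-dependent genes could be tested and 12 were called by edgeR, all 12 lower in DP, where 41.9% of all 21738 genes so tested were called and 19.3% were lower. The added genes rest on few reads, such as 20 counts in DN and 4 in DP for H2bu2 and 15 and 2 for H4c14. The number of replication-dependent genes called, 4, rose to 9 without DN replicate 2 and to 7 without DP replicate 1, 2 or 3, because more genes then passed the filter. Every gene called in these fits was lower in DP. In the fits that left out 1 library, the added genes could pass the filter through DN libraries alone. Their shared direction was thus favoured by the filter.

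Genes that process replication-dependent histone mRNA did not share the direction of the histones. Of 31 tested genes of this list, 19 rose and 6 fell in DP, where 38.3% of all tested genes rose and 37.6% fell. The median log2 fold change of the list was 0.42. With library totals alone 16 rose and 12 fell, where 3290 of all 11296 tested genes rose and 5355 fell. Slbp, whose product binds the stem-loop and is needed for processing and translation of these mRNAs, fell from 974 ± 29.8 to 686 ± 22.0 CPM (-0.51 ± 0.04, edgeR adjusted p = 7.95e-20). Npat, the coactivator of histone gene transcription in S phase, was at 48.9 ± 1.91 and 47.7 ± 1.85 CPM (-0.04 ± 0.06, edgeR adjusted p = 0.550). Of the proteins specific to the U7 particle that directs the cleavage, Lsm11 rose from 4.51 ± 0.556 to 6.42 ± 0.834 CPM (0.53 ± 0.16) and Lsm10 was at 0.966 ± 0.624 and 1.10 ± 0.415 CPM (edgeR adjusted p = 0.550). Cpsf3, the endonuclease of cleavage for both histone and polyadenylated mRNAs, rose by 0.77 ± 0.04 on the log2 scale, while its partner Cpsf2 fell by 0.87 ± 0.04. Snrpd3, a ring protein shared with the spliceosome, rose by 1.22 ± 0.04, the cap-binding gene Ncbp1 rose by 0.82 ± 0.04, and Tut7, a uridyltransferase that acts in RNA decay, fell by 1.19 ± 0.04.

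Of 34 tested histone chaperones and exchange factors, 19 rose and 10 fell, where 38.3% of all tested genes rose and 37.6% fell. The median of the list was 0.31, and with library totals alone 16 rose and 14 fell. The nucleolar chaperone Npm1 rose from 1743 ± 12.4 to 6998 ± 322 CPM (2.01 ± 0.04), Set from 1080 ± 33.3 to 3063 ± 101 CPM, and the helicase genes Ruvbl1 and Ruvbl2, whose products work in the complexes that exchange H2A.Z, by 1.49 ± 0.04 and 1.33 ± 0.04. Nasp, a carrier of H3 and H4 and of H1, rose from 1001 ± 20.8 to 1732 ± 39.2 CPM (0.79 ± 0.03); it was chosen after its value was seen.

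Genes of S phase and of mitosis moved in both directions. Of 47 tested S phase genes 26 rose and 11 fell, with a median log2 fold change of 0.12. With library totals alone 12 rose and 20 fell and the median was -0.07, so the direction of this list depends on the scaling. Tyms, which makes thymidylate, rose by 0.98 ± 0.05 and the replication factor gene Mcm10 by 0.73 ± 0.04, while Rfc1, the large clamp loader subunit, fell by 0.87 ± 0.04. Of 30 genes of G2 and mitosis 9 rose and 13 fell, with a median of -0.04, and 6 rose and 20 fell with library totals alone. Ndc80 of the kinetochore fell by 0.69 ± 0.04, Nusap1 by 0.60 ± 0.04 and Kif23 by 0.53 ± 0.04, while cyclin B1 (Ccnb1) rose by 0.64 ± 0.04. These counts stand against 37.6% of all tested genes lower and 38.3% higher in DP.

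**Figure D5:**
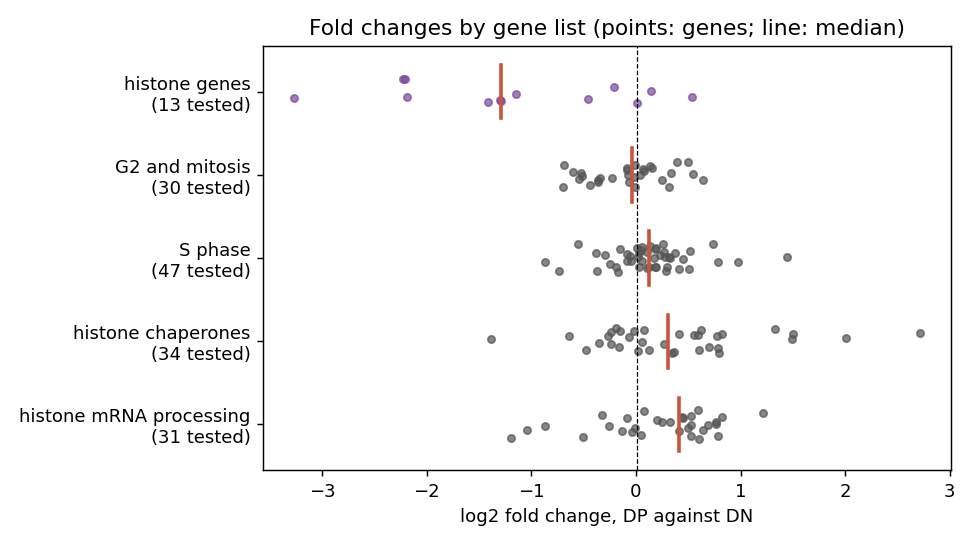
Log2 fold change of DP against DN for the tested genes of each list, with red lines at the list medians and a dashed line at the median of all tested genes (0.01). The histone genes have a median of -1.29, and the 4 other lists have medians between -0.04 and 0.42.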

How the data were processed

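The submitters' processing notes name the mm10 build, HTSeq 0.13.5, STAR 2.7.10a and Trim Galore 0.6.6. Which annotation was counted, and whether by strand, is not given in the sources used here. The authors deposited raw read counts per gene, 1 table per library. Their 5 summary rows, 12.6% of all counts in DN and 9.56% in DP on average, were left out. All libraries carry the same batch label. DP was compared with DN over all genes with edgeR 4.0.16 in R 4.3.3 (quasi-likelihood F test, TMM, filterByExpr with a minimum count of 10, robust, no block, Benjamini-Hochberg adjustment). Standard errors come from the log2 fold change and its F statistic. Libraries of a group differed by more than sampling noise (chi-square per degree of freedom 1.96 to 3.26), and each was counted as 1 sample. The fit was tested on simulated data.

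Positions, exon lengths and sequences came from GENCODE M21, to which all 84 histone identifiers matched. Histone classes were assigned by hand from gene names. Members and lists were chosen with earlier results of these data known, so no list was tested as a set. Named genes were the tested histones, 4 genes per list with the smallest p, and Slbp, Npat, Lsm10 and Lsm11; Cpsf3 and Nasp were added after their values were seen, and 1 gene the rule took is not reported here. Alternatives included other scalings, filters, DESeq2 1.42.0 and limma-voom 3.58.1.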

Additional observations from a re-analysis of the deposited data

How the results depend on the processing

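For 8 of the 13 tested histone genes (H1f2, H2bc4, H2bc21, H1f0, H1f10, H2ax, H2az2 and H3f3a) direction and call held in every alternative run in which the gene was tested. H2az1 turned to -0.050 with library totals alone. Macroh2a1, not called, was called higher without a filter (0.086, adjusted p = 0.0420) and lower with library totals alone (-0.18, adjusted p = 5.16e-06). It turned to -0.021 with upper-quartile factors, -0.037 with the stricter filter (at least 50 counts in 3 libraries) and, leaving out 1 library at a time, ran from -0.0023 to 0.042 (below 0 only without DN replicate 1). Against a minimum fold of 1.5, the calls were 3876 of 11296 for all genes and 5 of 9 for variant histones. They were 9 of 31 for histone mRNA processing, 11 of 34 for chaperones, 6 of 47 for S phase and 1 of 30 for G2 and mitosis. H4c9, H2aj, H2az1 and H3f3b lost their calls. Without a filter 22 of 69 tested histone genes were called, 12 of them replication-dependent, where 41.9% of all 21738 genes so tested were called. With the stricter filter 2 replication-dependent genes were called, since fewer were tested. Leaving out 1 library gave 4 to 9 replication-dependent genes. With library totals alone the summed levels of DP against DN were -1.55 for replication-dependent genes (main -1.36) and -0.55 for variant genes (main -0.35), both on the log2 scale. Same-numbered libraries did not deviate together (correlations -0.018 to 0.056), so the numbers gave no sign of pairing, and which libraries share a mouse is not known. With the replicate block 8589 genes and 12 histone genes were called, against 8571 and 12 without it. Under the filter 59 of 63 replication-dependent genes were not tested, and with DP thinned to DN depth 4 were again called.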
